A study of Homo sapiens with 5 samples.

Results

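AP-1 is a dimeric transcription factor built from FOS proteins (FOS, FOSB, FOSL1 and FOSL2) and JUN proteins (JUN, JUNB and JUND). The levels of 10 AP-1 and immediate early genes were followed in a human esophageal squamous cell carcinoma (ESCC) cell line before and after it had colonized the mouse lung. The genes were the 7 named above together with ATF3, EGR1 and IER3. They were taken by name, with no threshold on their values but with earlier results of these data known, as 10 of the 33538 genes in the deposited matrices. Immediate early genes are transcribed within minutes of a growth factor, a mechanical or an oxidative stimulus, with no need for new protein, and their transcripts decay quickly. FOS proteins dimerize with JUN proteins and bind the TPA response element (TRE) or the cAMP response element (CRE), while the MAP kinases raise AP-1 activity and the phosphatase DUSP1 lowers it. In squamous epithelium AP-1 is known for its place in differentiation, wound repair and invasion.

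The cells were KYSE30-Luc-GFP, a KYSE30 line given luciferase and green fluorescent protein with a lentivirus. The study followed them by 10x Chromium 3′ single-cell RNA sequencing in 5 libraries, 1 per timepoint. The parental library was made from cultured cells (in vitro). The other 4 held GFP-positive cells sorted from the lungs of NOD SCID mice (NOD.CB17-Prkdc scid/J, injected through the tail vein at 4 to 5 weeks of age) at 6 h, 48 h, 2 months (2 mo) and 4 months (4 mo). Several mice were pooled at 6 h, 48 h and 2 mo, and 1 mouse gave the library at 4 mo. T and B cells of these mice do not function, and innate immune cells remain.

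With 1 library per timepoint there was no replicate, so no test across timepoints was possible, and the intervals given below cover counting error only. Lung cells were enzymatically digested at 37 °C, depleted of mouse cells and sorted, whereas the methods describe no such digestion for the cultured cells. Immediate early genes can respond to dissociation itself, so time in the lung and tissue processing cannot be told apart in the comparison of lung with parental cells. The methods describe a single dissociation protocol for all lung timepoints, but the number of mice per library differed and was largest at 48 h. The time each library spent in sorting is not given in the sources used here. Time in the lung and processing therefore cannot be told apart between the lung libraries either.

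After the quality filter (200 to 8000 genes, at least 1000 unique molecular identifiers (UMIs) and at most 15% mitochondrial UMIs), 9059 parental cells remained, and the lung libraries kept 1957 cells (6 h), 1149 cells (48 h), 3322 cells (2 mo) and 4499 cells (4 mo), 19986 cells in all. Median depth ran from 12979 UMIs per cell at 6 h to 39076 at 48 h. Any pair of libraries shared 6 to 91 cell barcodes. Epithelial markers, 10 keratin and adhesion genes, summed to 1672 to 21721 CPM (counts scaled to 1e6 UMIs per library), and fibroblast markers summed to at most 13.6 CPM and endothelial markers to at most 0.707 CPM. The 8 leukocyte markers summed to 3.74 to 641 CPM, of which S100A8, a gene that squamous epithelium also expresses, gave 633 CPM at 4 mo. PTPRC, the pan-leukocyte antigen CD45, was at 0 in the libraries at 6 h and 2 mo. At 6 h the list summed to 44.04 CPM, with LYZ, the lysozyme gene, at 17.5 CPM against 0.0781 CPM in parental cells, CD68 at 16.4 CPM against 3.11 CPM and CSF1R at 8.51 CPM against 0.444 CPM, and their part in the member levels at 6 h was not tested. At 48 h the list summed to 24.8 CPM, with CSF1R at 12.1 CPM, CD68 at 11.2 CPM and LYZ at 0. Their part in the member levels at 48 h was not tested either. A cell was called MISs-positive by the study's MISs 1+1 rule, which asks for at least 1 UMI in each of 2 groups of metastasis-initiating cell (MIC) signature genes, 7 genes in all, none of them among the 10. It held for 1310 of the parental cells and for 1922, 1099, 2716 and 4465 cells at the lung timepoints, leaving 606 MISs-negative cells at 2 mo and at most 50 in each other lung library.

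Each gene was located on GRCh38 with the GENCODE annotation. FOS lies on chromosome 14 (75278826-75282230, plus strand), and FOSB, JUNB and JUND lie on chromosome 19 (45467995-45475179, plus; 12791486-12793315, plus; 18279694-18281622, minus). JUN (58776845-58784048, minus) and ATF3 (212565334-212620777, plus) lie on chromosome 1. FOSL1 is on chromosome 11 (65892049-65900573, minus), FOSL2 on chromosome 2 (28392448-28417317, plus), EGR1 on chromosome 5 (138465479-138469303, plus) and IER3 on chromosome 6 (30743199-30744548, minus). JUN, JUNB and JUND each consist of 1 exon, and the other 7 genes have 2 or 4 exons in their canonical transcripts.

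RefSeq promoter windows (GRCh38.p14) were found for 8 of the 10 genes, and the 250 bases before each start were searched on both strands. The letters searched were the TRE (TGACTCA), the CRE (TGACGTCA), the CRE core (TGACGT, also contained in the CRE) and the CArG box of the serum response element. Of 35116 windows of this length, 4.2% held the TRE, 1.65% the CRE, 7.1% the CRE core and 1.16% a CArG box. The windows of FOS, FOSB, FOSL2, JUND and EGR1 held the CRE core, JUND held the full CRE, EGR1 held CArG boxes, and the windows of JUN, JUNB and ATF3 held none of the 4. The 4 windows below are shown because these genes share the CRE core (TGACGT, or ACGTCA where it lies on the minus strand) and were at least 2-fold higher at 6 h than in MISs-positive parental cells. Each runs 5′ to 3′ on the strand of its gene and ends at the base before the RefSeq start, with the matches in capitals: FOS at chr14:75278578-75278827 (plus), FOSB at chr19:45467746-45467995 (plus), JUND at chr19:18281623-18281872 (minus) and EGR1 at chr5:138465229-138465478 (plus).
FOS: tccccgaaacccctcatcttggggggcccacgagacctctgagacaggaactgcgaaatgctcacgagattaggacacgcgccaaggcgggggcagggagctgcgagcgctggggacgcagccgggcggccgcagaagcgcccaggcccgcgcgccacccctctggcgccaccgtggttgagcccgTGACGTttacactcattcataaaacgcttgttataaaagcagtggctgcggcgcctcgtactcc
FOSB: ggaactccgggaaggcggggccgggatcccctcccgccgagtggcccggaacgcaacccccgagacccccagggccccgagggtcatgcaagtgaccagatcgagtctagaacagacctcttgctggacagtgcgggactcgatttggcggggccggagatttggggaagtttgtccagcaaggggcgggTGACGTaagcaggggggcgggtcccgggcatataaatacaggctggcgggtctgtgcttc
JUND: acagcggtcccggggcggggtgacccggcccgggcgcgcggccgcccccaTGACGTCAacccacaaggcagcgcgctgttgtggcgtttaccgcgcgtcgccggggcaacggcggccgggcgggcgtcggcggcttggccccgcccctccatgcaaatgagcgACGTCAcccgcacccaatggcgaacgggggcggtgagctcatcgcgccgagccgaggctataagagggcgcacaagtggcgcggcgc
EGR1: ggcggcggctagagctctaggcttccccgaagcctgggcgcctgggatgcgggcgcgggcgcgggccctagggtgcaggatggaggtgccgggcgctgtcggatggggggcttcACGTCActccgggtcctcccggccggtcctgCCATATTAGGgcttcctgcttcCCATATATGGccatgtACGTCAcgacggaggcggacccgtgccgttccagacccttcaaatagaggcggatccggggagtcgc
In FOS the core began 64 bases and in FOSB 60 bases before the start. In EGR1 the capitals mark a CRE core on the minus strand, then CArG boxes 105 and 83 bases before the start, then a second CRE core. A match gives the letters in the window and does not show that a factor was bound there.

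Over all cells, the levels of the 10 genes were higher in every lung library than in the parental library, except FOSL1 at 2 mo. Against MISs-positive parental cells, FOSL1 at 2 mo and 4 mo and FOSL2 at 2 mo were not higher. JUN, JUNB, ATF3, EGR1 and IER3 were highest at 48 h, lower at 2 mo and higher again at 4 mo. Together the 10 genes held 0.0268% of the UMIs in parental cells, 0.298% at 6 h, 0.575% at 48 h, 0.153% at 2 mo and 0.368% at 4 mo. JUND was also highest at 48 h. FOS and FOSB were highest at 4 mo, and FOSL1 and FOSL2 at 6 h.

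Among the FOS proteins, FOS itself is the founding immediate early member. Its level was 8.36 CPM in parental cells, 232 CPM at 6 h, 649 CPM at 48 h, 359.7 CPM at 2 mo and 1275 CPM at 4 mo. No neighbours in this order had overlapping counting intervals, and the level at 4 mo was 153-fold that in parental cells. FOSB, whose splice form ΔFOSB accumulates under repeated stimulation, was close to absent in culture. It stood at 0.942 CPM in parental cells, 132 CPM at 6 h, 191 CPM at 48 h, 70.3 CPM at 2 mo and 193 CPM at 4 mo, and the intervals at 48 h and 4 mo overlapped. The 3′ counts do not separate its splice forms.

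FOSL1 (FRA-1), a FOS protein without a strong transactivation domain that is itself an AP-1 target, followed another course. It stood at 17.4 CPM in parental cells, 238 CPM at 6 h, 168 CPM at 48 h, 17.4 CPM at 2 mo and 28.8 CPM at 4 mo. Over all cells the values at 2 mo and in culture had overlapping intervals, although FOS in the same cells was far above its parental level. Among MISs-positive cells alone, FOSL1 stood at 106 CPM in culture and 23.4 CPM at 2 mo (22.2 to 24.7), lower in the lung. FOSL2 (FRA-2) was the lowest of the family in each lung library, at 30.0 CPM at 6 h, 27.7 CPM at 48 h, 13.1 CPM at 2 mo and 26.0 CPM at 4 mo, against 4.94 CPM in parental cells. Its values at 6 h and 48 h overlapped, as did those at 48 h and 4 mo. In MISs-positive cells FOSL2 stood at 18.5 CPM in culture and 17.3 CPM at 2 mo.

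Of the JUN proteins, JUN, the partner that can also pair with itself, was the highest of the 10 genes over all cells in culture. In MISs-positive parental cells IER3 was the highest, at 307 CPM, and JUN stood at 57.1 CPM. Over all cells JUN stood at 114 CPM in parental cells, 625 CPM at 6 h, 933 CPM at 48 h, 317 CPM at 2 mo and 560.04 CPM at 4 mo. JUNB, which often opposes JUN, stood at 25.8 CPM in parental cells, 469.7 CPM at 6 h, 1096 CPM at 48 h, 167 CPM at 2 mo and 399 CPM at 4 mo. Its level at 48 h was 42.5-fold that in parental cells, against 8.20-fold for JUN. JUND, the member that resting cells express, had the narrowest range of levels among the lung libraries as a fold, 1.60-fold from lowest to highest, while in CPM the range of FOSL2 was narrower (16.9 against 64.6 CPM). Its level was 10.7 CPM in parental cells, 141 CPM at 6 h, 173 CPM at 48 h, 108 CPM at 2 mo and 108 CPM at 4 mo, the last 2 with overlapping intervals.

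ATF3, a stress-induced partner of the JUN proteins, stood at 22.0 CPM in parental cells, 328 CPM at 6 h, 501 CPM at 48 h, 89.5 CPM at 2 mo and 224 CPM at 4 mo. EGR1, a zinc-finger factor driven through the serum response element, had the widest step, as a fold, between the first lung timepoints. It stood at 5.38 CPM in parental cells, 82.2 CPM at 6 h, 517 CPM at 48 h, 60.1 CPM at 2 mo and 211 CPM at 4 mo. IER3, an immediate early product linked to cell survival and ERK signalling, was the highest of the 10 at 6 h and at 48 h. It stood at 59.3 CPM in parental cells, 705 CPM at 6 h, 1493 CPM at 48 h, 323 CPM at 2 mo and 655 CPM at 4 mo.

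**Figure D1:**
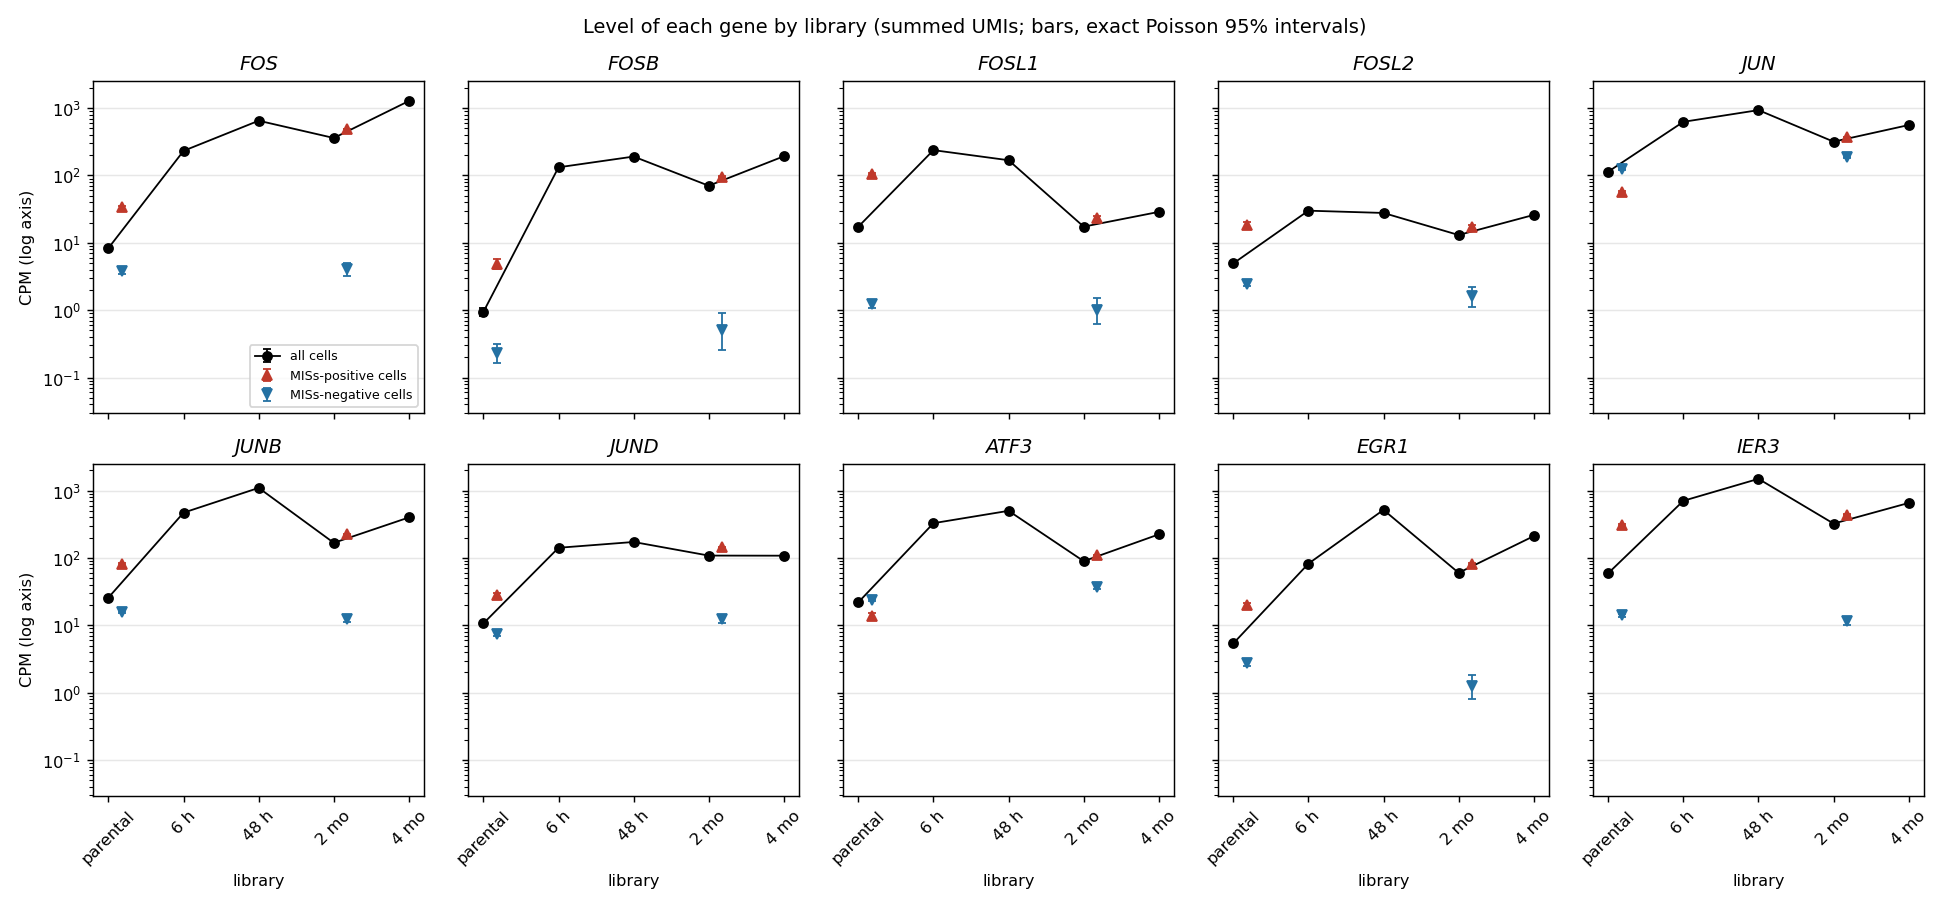
Level of each of the 10 genes in CPM (log axis) by library, from UMIs summed over cells, with exact Poisson 95% intervals (often smaller than the points). Black circles are all cells, red triangles MISs-positive and blue triangles MISs-negative cells of the parental and 2 mo libraries. Over all cells the 10 genes had their lowest values in parental cells, FOS was highest at 4 mo with 1275 CPM, and FOSL1 stood at 17.4 CPM both at 2 mo and in culture, against 106 CPM in MISs-positive parental cells.

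Cells at 6 h were compared first with all parental cells and then with the MISs-positive parental cells, since 1922 of the 1957 cells at 6 h were MISs-positive. A gene was counted as higher or lower when its log2 ratio (1 CPM added to each side) was at least 1 or at most -1, provided that it reached 5 CPM in at least 1 of the groups. Against all parental cells, 10 of 10 genes were higher and none was lower, beside a background of 17.2% of the 10852 genes higher and 27.8% lower. The log2 ratio ran from 2.38 for FOSL2 to 6.10 for FOSB, and the median over all genes was -0.29. Against the MISs-positive parental cells, 9 of 10 genes were higher and none lower, beside 10.6% of 9936 genes higher and 12.3% lower, with a median over all genes of -0.05. FOSL2 did not reach the fold, at 1.62-fold (95% counting interval 1.46 to 1.80).

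The choice of parental cells changed the order of the genes. Against all parental cells FOSL1 was 13.7-fold higher at 6 h (13.2 to 14.2) and IER3 11.9-fold (11.6 to 12.1), but against the MISs-positive cells they were 2.25-fold (2.16 to 2.34) and 2.29-fold higher (2.24 to 2.35). JUN and ATF3 went the other way. JUN was 5.49-fold higher against all parental cells (5.39 to 5.60) and 10.9-fold against the MISs-positive cells (10.4 to 11.5), and ATF3 was 14.9-fold (14.4 to 15.5) and 23.7-fold higher (21.5 to 26.1). FOSB had the largest ratio against MISs-positive cells, 27.3-fold (23.2 to 32.3), followed by ATF3 and JUN.

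From 6 h to 48 h, 4 of 10 genes were higher by at least 2-fold and none was lower, beside a background of 3.24% of 9605 genes higher and 1.42% lower. The median over all genes was 0.14 on the log2 scale. The 4 genes were EGR1 (6.29-fold, 6.04 to 6.55), FOS (2.80-fold, 2.73 to 2.87), JUNB (2.33-fold, 2.29 to 2.38) and IER3 (2.12-fold, 2.09 to 2.15). FOSL1 stood at 0.708 of its level at 6 h (0.686 to 0.731), within the limit, and the interval for FOSL2 included no difference (0.851 to 1.01).

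From 48 h to 2 mo all 10 log2 ratios were below 0, and 8 of 10 genes were lower by at least 2-fold and none higher, beside 13.0% of 10445 genes lower and 12.2% higher. FOSL1 was 9.68-fold lower (9.15 to 10.3), EGR1 8.60-fold (8.34 to 8.87) and JUNB 6.54-fold (6.42 to 6.67). FOS and JUND did not reach the fold, at 1.81-fold (1.78 to 1.83) and 1.59-fold lower (1.54 to 1.64). With at most 5% mitochondrial UMIs the log2 ratio of FOS moved from -0.85 to -1.59, past the limit. Among MISs-positive cells alone, a setting added after the data had been seen, FOS was 1.32-fold lower (1.30 to 1.35), FOSB 1.99-fold lower (1.92 to 2.06) and FOSL1 7.21-fold lower (6.80 to 7.64). FOSB then fell short of the limit, so fewer than 8 genes passed it. FOSL2 stood at 17.3 CPM in MISs-positive cells at 2 mo, against 27.7 CPM over all cells at 48 h.

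From 2 mo to 4 mo, 6 of 10 genes were higher by at least 2-fold and none lower, beside a background of 3.03% of 10082 genes higher and 9.38% lower, with a median over all genes of -0.24. FOS was 3.54-fold higher (3.50 to 3.59), EGR1 3.51-fold (3.40 to 3.62), FOSB 2.74-fold (2.66 to 2.82), ATF3 2.50-fold (2.44 to 2.57), JUNB 2.38-fold (2.34 to 2.43) and IER3 2.02-fold (2.00 to 2.05). JUND stood at 0.996 of its level at 2 mo (0.970 to 1.02). When only MISs-positive cells entered, 3 genes remained past the fold, FOS at 2.60-fold (2.57 to 2.63), EGR1 at 2.58-fold (2.50 to 2.66) and ATF3 at 2.05-fold (2.00 to 2.11), and JUND was 1.33-fold lower (1.30 to 1.37).

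**Figure D2:**
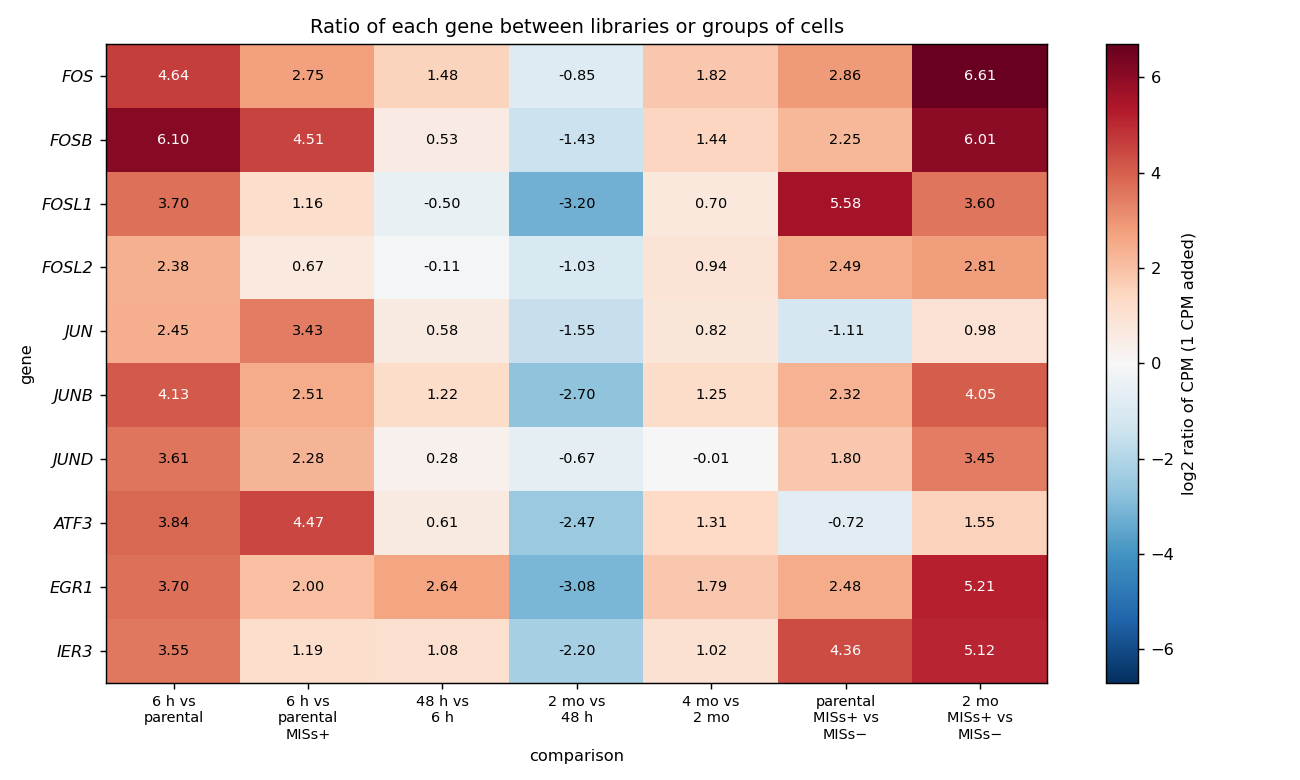
Log2 ratio of CPM (1 CPM added to each side) for each gene (rows) in the 7 comparisons (columns); red is higher and blue lower in the first group of each pair, with the value printed in each field. Ratios were above 0 for 10 genes at 6 h against parental cells and below 0 for 10 genes from 48 h to 2 mo, and JUN and ATF3 were the genes below 0 in MISs-positive against MISs-negative parental cells.

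Within the parental culture the MISs-positive cells differed from the MISs-negative cells. In the MISs-positive cells 7 of 9 genes past the minimum were higher by at least 2-fold and 1 was lower, beside 12.9% of 10711 genes higher and 18.8% lower, and the median over all genes was -0.26. The epithelial markers differed more: 7 of 7 past the minimum were higher in MISs-positive cells. Their median log2 ratio was 4.86, against 2.48 for the 9 genes, so the 2 classes also differ in epithelial expression. FOSL1 stood at 106 CPM in MISs-positive and 1.24 CPM in MISs-negative cells, an 85.6-fold difference (74.5 to 98.7). IER3 stood at 307 CPM and 14.03 CPM (21.9-fold, 21.0 to 22.9), and FOS at 33.6 CPM and 3.76 CPM (8.93-fold, 8.10 to 9.87). FOSB, at 4.84 CPM and 0.231 CPM, was below the minimum of 5 CPM.

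JUN and ATF3 were the exceptions. JUN stood at 57.1 CPM in MISs-positive and 124 CPM in MISs-negative parental cells, 2.17-fold lower in the former (2.07 to 2.28), and ATF3 at 13.9 CPM and 23.4 CPM was 1.69-fold lower (1.53 to 1.87). After the ratios were centred on the median of all genes, or with at most 5% mitochondrial UMIs, JUN no longer reached the 2-fold limit, and with at most 5% mitochondrial UMIs the log2 ratio of ATF3 moved from -0.72 to 0.05. Of 13 heat shock genes past the minimum, 2 were higher and 2 lower in MISs-positive cells, with a median log2 ratio of -0.18. HSPA1A, at 136 CPM in MISs-positive and 1123 CPM in MISs-negative cells, and HSPA1B were the lower ones, whereas BAG3 (2.40-fold, 2.27 to 2.53) and DNAJB4 (2.47-fold, 2.26 to 2.69) were higher, and the part of heat shock in the levels of JUN and ATF3 was not tested. Median depth was 24831 UMIs in MISs-positive and 22772 in MISs-negative parental cells.

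At 2 mo 9 of 10 genes were higher in MISs-positive cells and none was lower, beside 18.8% of 10871 genes higher and 21.9% lower, although the MISs-negative cells were the deeper ones (median 37139.5 against 19415.5 UMIs). All 10 epithelial markers were higher in MISs-positive cells too, with a median log2 ratio of 5.81, against 3.83 for the 10 AP-1 and immediate early genes. FOS stood at 491 CPM in MISs-positive and 4.05 CPM in MISs-negative cells (121-fold, 98.4 to 151), FOSB at 96.0 CPM and 0.506 CPM, and EGR1 at 81.8 CPM and 1.24 CPM (65.9-fold, 45.2 to 100.07). JUN, at 366 CPM and 185 CPM, differed by 1.98-fold (1.91 to 2.05) and fell short of the limit. FOSL1 stood at 23.4 CPM in MISs-positive and 1.01 CPM in MISs-negative cells. With no quality filter the log2 ratio of FOS in this split moved from 6.61 to 4.11 and that of FOSB from 6.01 to 2.94. FOS in MISs-negative cells was 4.05 CPM at 2 mo and 3.76 CPM in culture. Their JUN at 2 mo, 185 CPM, and ATF3, 36.6 CPM, were above the 124 CPM and 23.4 CPM of MISs-negative cells in culture.

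Because a UMI counts a molecule once whatever its length, the members of a family could be set against each other by their share of the family's UMIs, though capture may differ between genes. FOSL1 was the leading FOS gene in MISs-positive parental cells and FOS the leading one from 48 h on. FOSL1 gave 65.0% of the FOS family UMIs in MISs-positive parental cells (95% Clopper-Pearson interval 63.7 to 66.3), 37.6% at 6 h, 16.2% at 48 h, 3.77% at 2 mo and 1.89% at 4 mo (1.83 to 1.95). FOS gave 20.6% in the MISs-positive parental cells, 36.7% at 6 h, 62.7% at 48 h, 78.1% at 2 mo and 83.7% at 4 mo. The share of FOS was larger at 2 mo than at 48 h, although the summed level of the family was 460.5 CPM at 2 mo and 1036 CPM at 48 h.

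The JUN family had no such steady course. JUN gave 84.3% of its UMIs in MISs-negative and 34.1% in MISs-positive parental cells, 50.6% at 6 h, 42.4% at 48 h, 53.5% at 2 mo and 52.5% at 4 mo. JUNB gave 48.9% in MISs-positive parental cells and was again the leading member at 48 h, with 49.8% (49.5 to 50.1). At 2 mo JUN gave 88.1% of the family in MISs-negative cells and 49.8% in MISs-positive cells, as in culture a larger share where the signature was absent.

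**Figure D3:**
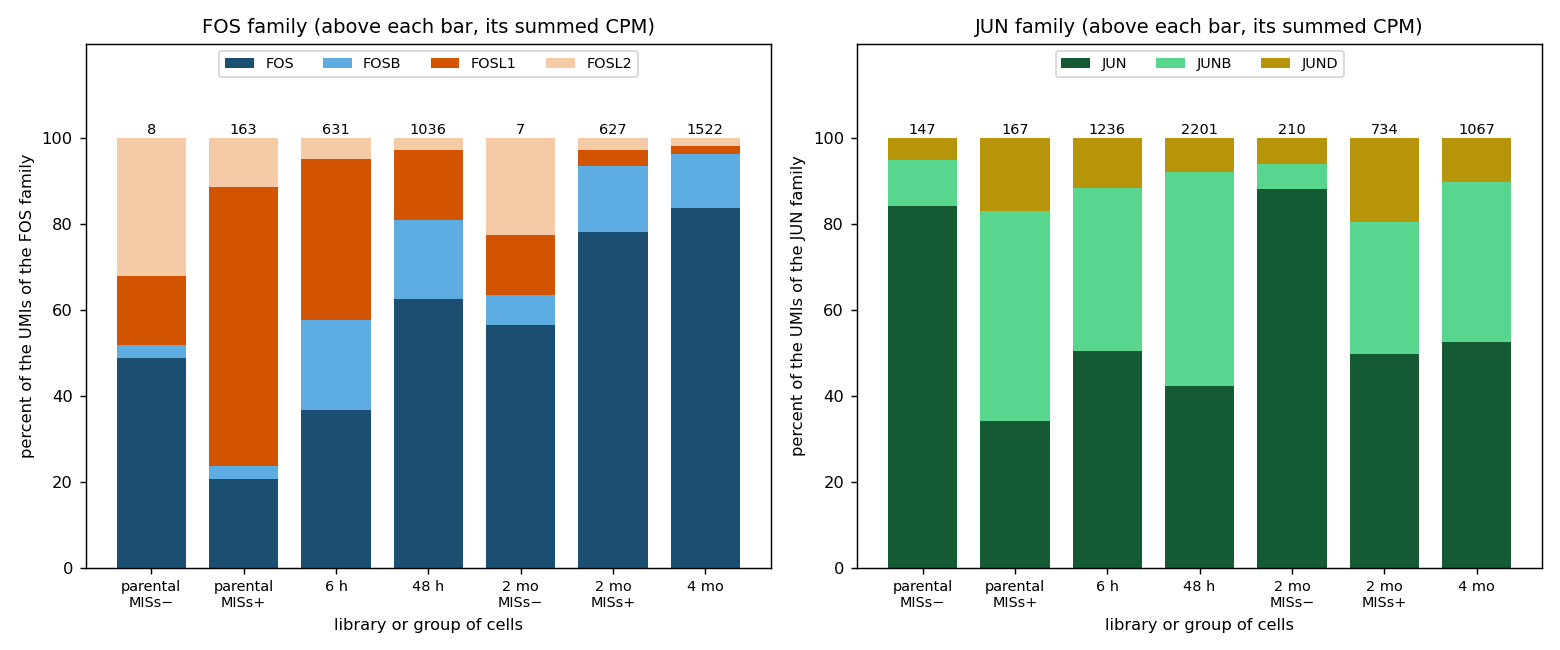
Share of the FOS family UMIs (left) and of the JUN family UMIs (right) held by each gene, in percent, for the parental and 2 mo cells by MISs call and for the other lung libraries; the number above each bar is the summed CPM of the family. FOSL1 goes from 65.0% in MISs-positive parental cells to 1.89% at 4 mo while FOS goes from 20.6% to 83.7%.

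To compare cells of different depth, each cell was thinned to 3000 UMIs, which left out 157 parental cells and from 76 to 281 cells of each lung library. The mean number of the 10 genes with a UMI in a thinned cell was 0.589 in parental cells, 3.03 at 6 h, 5.26 at 48 h, 2.79 at 2 mo and 4.50 at 4 mo. In parental cells 56.6% had a UMI of none of the 10 and 0.0562% had 5 or more. At 48 h these shares were 4.19% and 68.6%, and at 4 mo 2.20% and 50.9%. The library at 6 h was split, with 25.2% of its cells at 0 genes and 30.2% at 5 or more.

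**Figure D4:**
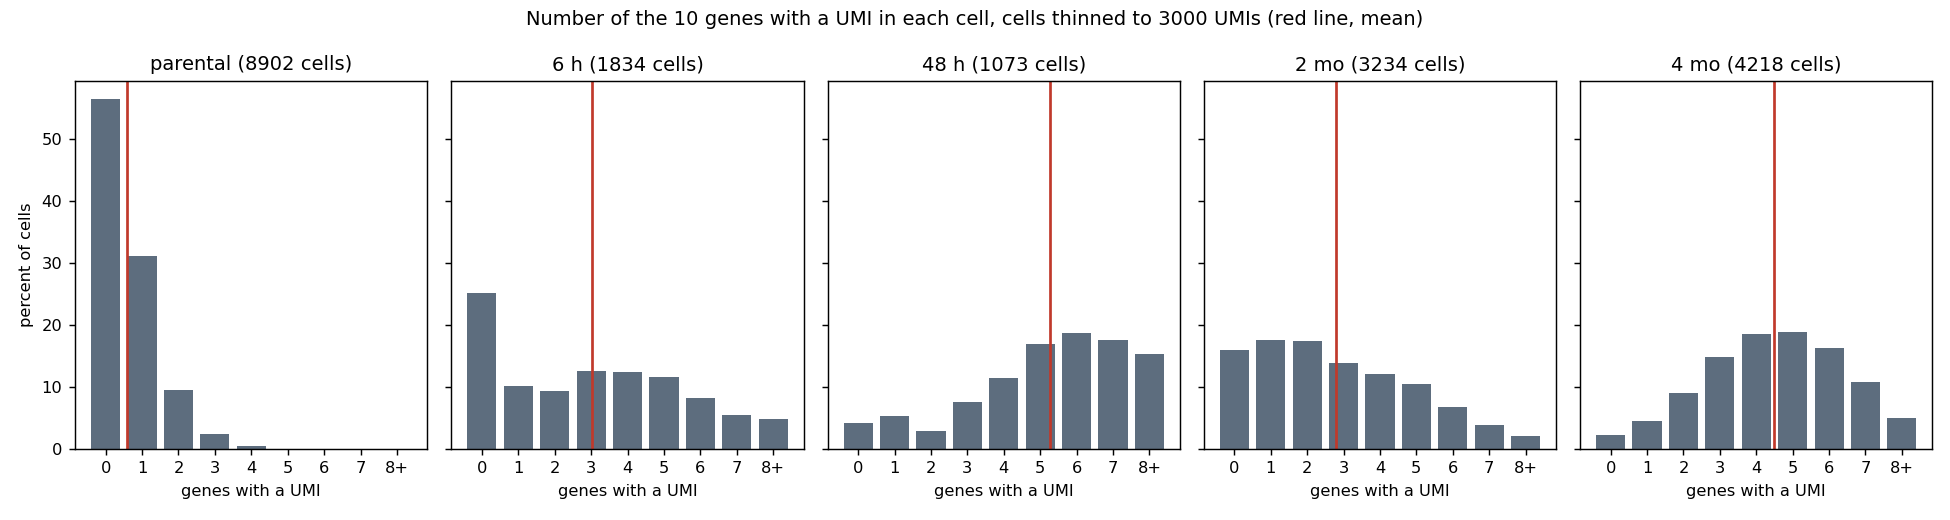
Percent of cells (vertical axis) by how many of the 10 genes had a UMI (horizontal axis) in each library, cells thinned to 3000 UMIs; the red line is the mean. The parental cells pile up at 0 (56.6%), the cells at 6 h have a peak at 0 (25.2%) and a broad second group around 3 to 5 genes, and the cells at 48 h centre on 5 to 7.

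Single genes showed the same unevenness at 6 h. FOS had a UMI in 48.6% of cells at 6 h before thinning (26.3% after; Clopper-Pearson interval 24.3 to 28.4), where an even level at the same depths would have left 13.7% of cells without a UMI in place of 51.4%. After thinning, the 10% of cells with the most FOS held 78.8% of its UMIs at 6 h, 44.5% at 48 h, 56.3% at 2 mo and 33.5% at 4 mo (67.6% and 29.4% at 6 h and 4 mo without thinning). This share falls as the level of a gene rises, and at 4 mo, where FOS was highest, it had a UMI in 93.2% of cells before and 82.2% after thinning (81.0 to 83.3). ATF3 was as uneven at 6 h, with 77.5% of its thinned UMIs in the top 10% of cells and up to 678 UMIs in 1 cell before thinning, although its level at 6 h (328 CPM) was above that at 4 mo (224 CPM), where the share was 47.1%.

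JUN was without a UMI in 38.2% of cells at 6 h, where an even level would have left 3.05%, and IER3 in 35.2%, where it would have left 2.44%. After thinning, JUN had a UMI in 22.7% of the cells in culture, 46.8% at 6 h, 77.4% at 48 h, 53.1% at 2 mo and 71.0% at 4 mo. A UMI of FOSL1 was found in 3.80% of cultured cells, 36.5% at 6 h, 34.4% at 48 h, 4.05% at 2 mo and 6.88% at 4 mo. No cell type that should lack these genes was present to set the share given by free RNA. Among whole libraries the lowest shares were those of parental cells, at a median depth of 23014 UMIs before thinning. They were 0.326% for FOSB, 1.36% for EGR1, 1.53% for FOSL2 and 2.24% for FOS. MISs-negative cells at 2 mo had lower summed levels of these genes than the parental library. FOS stood at 4.05 against 8.36 CPM, FOSB at 0.506 against 0.942 CPM, EGR1 at 1.24 against 5.38 CPM and FOSL2 at 1.61 against 4.94 CPM.

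The cells at 6 h with none of the 10 genes stood apart in other measures, which were looked at after these values were seen. Thinned to 3000 UMIs, 463 cells had a UMI of none of the 10 genes and 554 had 5 or more. Median depth was 7157 UMIs in the former and 18812 in the latter, and the median number of genes at 3000 UMIs was 958 against 1291.5. MALAT1, a long noncoding RNA retained in the nucleus, stood at 657 CPM against 5683 CPM, and NEAT1, the RNA scaffold of nuclear paraspeckles, at 42.4 CPM against 1138 CPM. ACTB, the cytoplasmic actin mRNA, stood at 13108 CPM against 9694 CPM, and epithelial markers at 10712 CPM against 10220.4 CPM. After thinning, a UMI of MALAT1 was missing from 87.0% of the cells with none of the 10 genes (83.6 to 89.96) and from 2.71% of those with 5 or more (1.52 to 4.43); without thinning, from 81.6% and 1.08%.

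After thinning, 30.8% of cells at 6 h had no MALAT1 UMI (28.7 to 32.98), against 11.3% in culture (10.6 to 11.97), 5.69% at 48 h, 4.70% at 2 mo and 6.76% at 4 mo. Without thinning, at unequal depths, the shares were 28.0% at 6 h (547 of 1957 cells, median 6476 UMIs), 2.23% in culture, 8.53% at 48 h, 4.73% at 2 mo and 7.89% at 4 mo. In those 547 cells at 6 h JUN stood at 22.0 CPM (17.7 to 27.0), against 714 CPM in the cells with MALAT1, IER3 at 44.8 CPM against 802 CPM and FOS at 23.7 CPM against 263 CPM. ATF3 and FOSL1 differed less, at 58.4 CPM against 368 CPM and 60.1 CPM against 264 CPM. All 10 genes were lower in cells without MALAT1 at 6 h, at 48 h and at 2 mo, with no overlap of the intervals. In culture ATF3 and JUN went the other way, with ATF3 at 89.6 CPM (75.1 to 106) in the 202 cells without MALAT1 and 21.5 CPM in those with it, and JUN at 166 CPM (146 to 188) and 113 CPM.

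At 4 mo this difference was small for some genes. FOS stood at 1336 CPM in the 355 cells without MALAT1 (1283 to 1391) and 1274 CPM in those with it, and IER3 at 683 CPM and 654 CPM. FOSB, at 44.2 CPM against 195 CPM, and EGR1, at 76.1 CPM against 213 CPM, kept a clear difference. The cells without MALAT1 at 4 mo were shallow (median 3069 UMIs) and had a median of 0.0664% mitochondrial UMIs, against 5.59% in those at 6 h, so the 2 sets differ in more than time. Cells without MALAT1 at 48 h and 2 mo also had low mitochondrial shares, with medians of 0.178% and 0.219%. Their FOS stood at 109 and 97.2 CPM, against 659 and 363 CPM in the cells with MALAT1. When all cells without MALAT1 were left out, the number of genes past the 2-fold limit stayed within 1.5 times of that over all cells in each of the 7 comparisons. Cells without MALAT1 were the shallower ones in each library (at 6 h a median of 6476 against 18519.5 UMIs). Levels are summed UMIs, so leaving these cells out had little room to change the counts. The part of nuclear RNA content in the member levels was not tested.

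**Figure D5:**
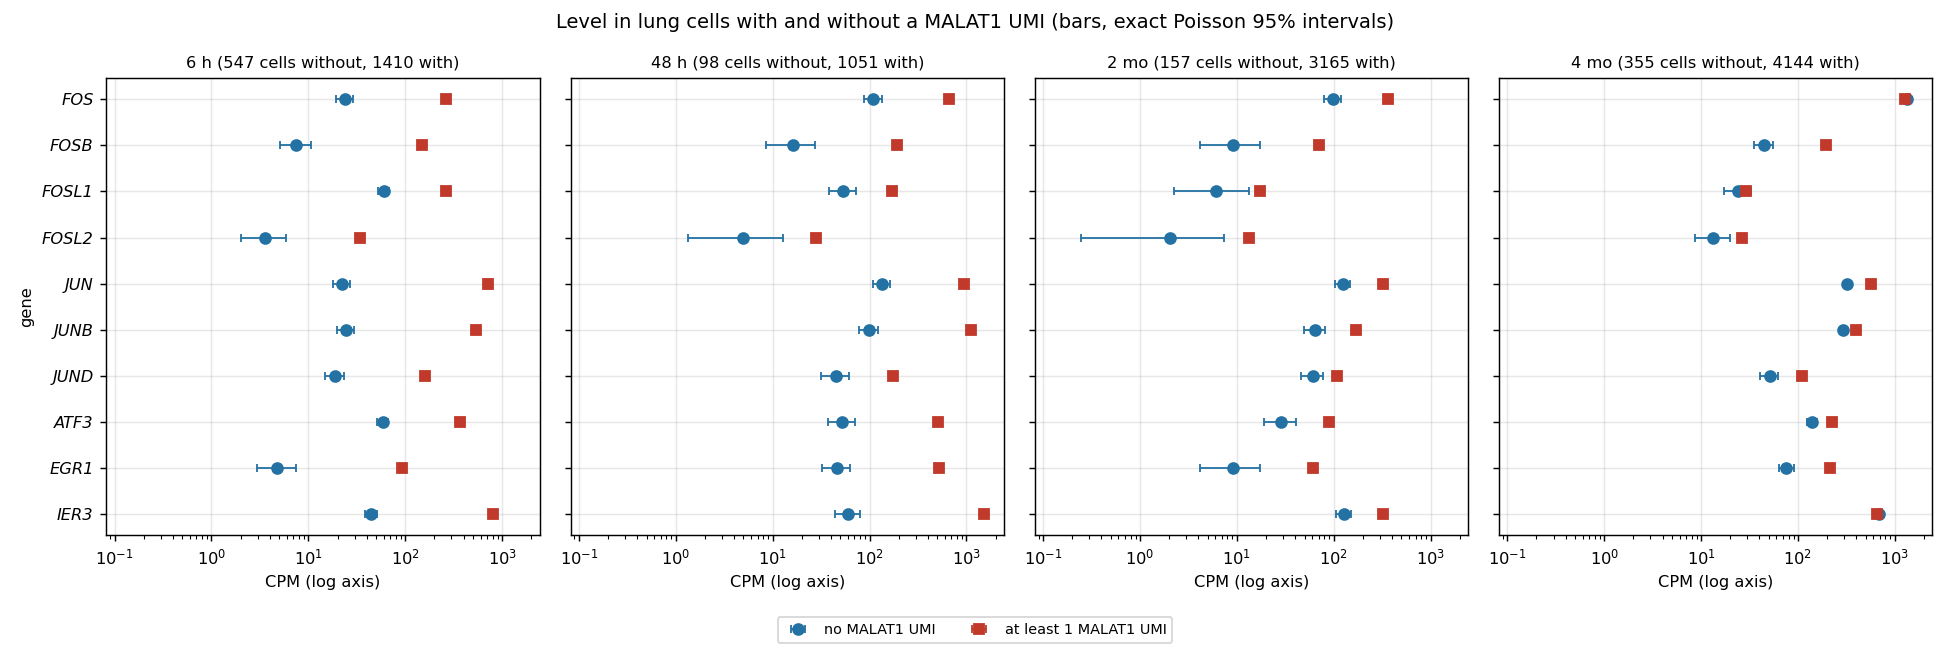
Level of each gene in CPM (log axis) in lung cells with at least 1 MALAT1 UMI (red squares) and with none (blue circles), by timepoint, with exact Poisson 95% intervals. At 6 h JUN is at 22.0 CPM without and 714 CPM with MALAT1, whereas at 4 mo FOS is at 1336 CPM and 1274 CPM.

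The mitochondrial share of a cell moved with most of the genes. At 2 mo FOS stood at 205 CPM in cells with up to 5% mitochondrial UMIs, 409 CPM in those with 5 to 10% and 596 CPM in those with 10 to 15%. FOSB stood at 30.4, 76.9 and 177 CPM and JUND at 67.9, 110.1 and 251 CPM in the same classes. FOSL1 at 6 h went the other way, at 278, 164 and 124 CPM. In the barcodes with over 15%, which the filter had removed, FOS stood at 649 CPM at 6 h and 794 CPM at 2 mo. Depth moved too: at 2 mo FOS stood at 812 CPM in the shallowest and 153 CPM in the deepest of 3 equal classes of cells. The MISs-negative cells at 2 mo, with FOS at 4.05 CPM against 491 CPM, were also the deeper ones (median 37139.5 against 19415.5 UMIs). Neither the depth nor the mitochondrial classes were split by MISs call, so the part of cell class in these differences was not tested. With at most 5% mitochondrial UMIs, the counts of genes past the limit stayed within 1.5 times in every comparison except that JUN in parental cells was lost, and the part of cell quality in the levels was not otherwise tested.

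Across the cells of a library, most pairs of the 10 genes other than FOSL1 and FOSL2 varied together more in the lung than in culture. Pearson r was computed on ln(1 + count) over cells thinned to 3000 UMIs, as a description, since the cells share their library and low counts weaken r. All cells of a library entered together, among them the 25.2% of cells at 6 h with none of the 10 genes. At 2 mo the MISs-negative cells had a mean of 0.537 of the genes, against 3.29 in MISs-positive cells. In culture these means were 0.441 and 1.45. Such a mixture can raise r for all pairs, and its part in r was not tested. Over the 28 pairs of the other 8 genes the median r was 0.03 in culture, 0.40 at 6 h, 0.33 at 48 h, 0.29 at 2 mo and 0.24 at 4 mo. Each of the 28 was above its value in culture at 6 h, 48 h and 2 mo, and 26 were at 4 mo. For FOS and JUN r was -0.01 in parental cells, 0.52 at 6 h, 0.44 at 48 h, 0.37 at 2 mo and 0.36 at 4 mo. JUNB and IER3 gave 0.21, 0.59, 0.55, 0.40 and 0.19 in the same order, and FOS and FOSB 0.05, 0.51, 0.33, 0.50 and 0.38. Of the cells at 6 h with a FOS UMI, 78.6% also had a JUN UMI, against 35.4% of those without FOS.

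In the 17 pairs with FOSL1 or FOSL2 the median r was 0.03 in culture, 0.15 at 6 h, 0.03 at 48 h, 0.06 at 2 mo and 0.02 at 4 mo. The r of FOSL1 with FOS was 0.07 in parental cells, 0.19 at 6 h, -0.05 at 48 h, -0.01 at 2 mo and -0.04 at 4 mo. At 48 h FOSL1 had a UMI in 33.9% of FOS-positive and 35.1% of FOS-negative cells, and at 6 h in 51.7% and 31.1%. Its highest r in culture among the other 9 genes was with IER3, 0.25, and the same pair gave 0.04 at 4 mo. Both genes were higher in MISs-positive than in MISs-negative parental cells, and the part of cell class in this r was not tested.

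For each gene the 3 genes with the highest mean r over the 5 libraries were taken from 3651 genes with a UMI in at least 5% of thinned cells everywhere. DUSP1, the phosphatase that dephosphorylates MAP kinases, ranked first for FOS (mean r 0.39), JUN (0.34) and ATF3 (0.34) and second for FOSB and IER3. These means rest on the lung libraries: in culture r with DUSP1 was -0.01 for FOS, 0.07 for JUN, 0.08 for ATF3, -0.02 for FOSB and -0.02 for IER3. JUNB and IER3 ranked first for each other (0.39), with IER2 second for JUNB. FOSL1 had TNFRSF12A (0.19), the receptor of TWEAK, AREG (0.19), an EGF receptor ligand, and PHLDA1 (0.18). Its r with TNFRSF12A was highest in culture, 0.35, against 0.28 at 6 h, 0.07 at 48 h, 0.17 at 2 mo and 0.08 at 4 mo. FOSL1 and PHLDA1 were both higher in MISs-positive than in MISs-negative parental cells, PHLDA1 at 366 against 2.17 CPM. The part of cell class in the r of FOSL1 was not tested. JUND had NEAT1 (0.25), IER3 (0.20) and MALAT1 (0.19), and the first gene for FOSL2, AREG, had a mean r of 0.10.

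Other genes of the pathway were taken from lists of known members. Of 12 other immediate early transcription factors past the minimum, 12 were higher at 6 h than in MISs-positive parental cells and none was lower, against the background of 10.6% higher and 12.3% lower that also holds for the lists that follow. Their median log2 ratio was 2.92, beside -0.05 over all genes. NR4A1, an orphan nuclear receptor, stood at 1.42 CPM in MISs-positive parental cells, 77.0 CPM at 6 h, 189 CPM at 48 h, 51.6 CPM at 2 mo and 151 CPM at 4 mo. KLF2, a factor that responds to flow in endothelium, stood at 2.72, 77.9, 113, 13.1 and 7.45 CPM in the same order, lower at 4 mo than at 2 mo. The lung values given for genes of these lists are over all cells, among them 606 MISs-negative cells at 2 mo. In MISs-positive cells at 2 mo NR4A1 stood at 69.8 CPM and KLF2 at 17.5 CPM.

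Of 11 other immediate early products 10 were higher at 6 h and none lower, with a median log2 ratio of 2.95. SGK1, a serum-induced kinase, stood at 7.91 CPM in MISs-positive parental cells and 226 CPM at 6 h, and RHOB, a small GTPase, at 70.5 CPM and 909 CPM. PHLDA1, which was already at 366 CPM in MISs-positive parental cells, stood at 562 CPM at 6 h. Of 18 feedback inhibitors 14 were higher and none lower (median 1.78). DUSP1 stood at 11.6 CPM in MISs-positive parental cells, 234 CPM at 6 h, 592 CPM at 48 h, 229.8 CPM at 2 mo and 629 CPM at 4 mo, highest at 4 mo as FOS was. In MISs-positive cells at 2 mo DUSP1 stood at 299.6 CPM. The feedback inhibitors with the lowest ratios among those with at least 50 CPM were ERRFI1 and ZFP36L1. ERRFI1 stood at 71.1 CPM in MISs-positive parental cells and 103 CPM at 6 h, and ZFP36L1 at 214 CPM and 412 CPM.

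The kinases and factors upstream of the 10 genes had no such shift: of 16, 1 was higher and 2 were lower at 6 h, with a median log2 ratio of 0.09. Of 8 other AP-1 dimer partners 3 were higher and none lower (median 0.94), ATF4, the stress-response factor, at 103 CPM in MISs-positive parental cells and 232 CPM at 6 h. Of 13 AP-1 target genes 9 were higher and none lower (median 1.95). PLAU, the urokinase gene, stood at 55.5 CPM in MISs-positive parental cells, 568 CPM at 6 h, 505 CPM at 48 h, 42.7 CPM at 2 mo and 147 CPM at 4 mo, and the chemokine gene CXCL8 at 2.25 CPM and 57.7 CPM in the first pair. The targets with the lowest ratios among those with at least 50 CPM were CCND1 and TIMP1. In the same pair CCND1 stood at 147 and 198 CPM and TIMP1 at 140 and 190 CPM. Of 14 heat shock genes, 7 were higher and none lower (median 1.17). Against all parental cells 5 of 14 were higher and none lower (median 0.62), beside 17.2% of all genes higher and 27.8% lower (median -0.29).

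From 6 h to 48 h 3 of 12 immediate early transcription factors and 3 of 17 feedback inhibitors were higher and none lower. The background was 3.24% of all genes higher and 1.42% lower. Of 11 products, 8 dimer partners and 16 upstream genes none was higher or lower, and of 14 AP-1 targets 3 were higher and 3 lower. From 48 h to 2 mo 9 of 12 immediate early transcription factors, 10 of 11 products, 12 of 18 feedback inhibitors and 9 of 13 AP-1 targets were lower, beside 13.0% of all genes lower and 12.2% higher, with median log2 ratios of -2.06, -1.87, -1.41 and -1.64. In the same comparison 1 feedback inhibitor and 3 AP-1 targets were higher. Of the 16 upstream genes 4 were lower and none was higher there, with a median of -0.36. From 2 mo to 4 mo 7 of 13 transcription factors, 3 of 10 products, 7 of 18 feedback inhibitors and 8 of 14 targets were higher, beside 3.03% of all genes higher and 9.38% lower. In these 4 lists 1 gene, an AP-1 target, was lower, and of the 16 upstream genes none was higher and 1 was lower, with a median of -0.14. In both comparisons with the library at 2 mo all its cells entered, among them 606 MISs-negative cells. The lists were not counted among MISs-positive cells alone.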

How the data were processed

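The authors deposited 1 gene-by-barcode matrix of UMI counts per library (whole numbers, no normalization), made per the labels with Cell Ranger 3 on GRCh38 (matrix header software 3.0.2). Python 3.11.15 with numpy and scipy was used. Barcodes with 200 to 8000 genes, a minimum of 1000 UMIs and no more than 15% MT- UMIs were kept as cells. No doublet caller was run; leaving out the deepest 5% of cells stood in for one. UMIs were summed over cells and scaled to CPM. Intervals are exact Poisson (levels), Clopper-Pearson (shares) and conditional binomial (ratios) at 95%; barcodes carry no mouse label and they cover counting error only, so no p-value was computed. The ratio code was tested on simulated data. Named genes were taken from the 10 members, the 2 highest and 2 lowest log2 ratios of each other list (6 h against MISs-positive parental cells, at least 50 CPM) and the 3 most correlated genes per member. Not all of these are printed. BAG3 and DNAJB4 were added as the heat shock genes higher in MISs-positive parental cells. MALAT1, NEAT1 and ACTB were chosen after their values were seen. Members and lists were chosen with earlier results of these data known. Promoter sequences are from RefSeq and gene positions from GENCODE. The signature genes are not listed here.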

Additional observations from a re-analysis of the deposited data

How the results depend on the processing

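No paired analysis was possible because each timepoint has 1 library. The alternatives were no quality filter, at most 10% MT- UMIs, leaving out the deepest 5% of cells, equal weight per cell, 0.1 CPM added, a minimum of 20 CPM, centring on the median of all genes, and CPM without mitochondrial and ribosomal protein genes. Of the 14 counts of genes past the 2-fold limit, each stayed within 1.5 times under each of these, except that the 1 gene lower in MISs-positive parental cells (JUN) became 0 after centring. Alternatives chosen after seeing the data were at most 5% MT- UMIs, under which the same count became 0, leaving out cells without MALAT1, which moved no count by more than 1.5 times, and MISs-positive cells only, under which the genes higher at 4 mo than at 2 mo went from 6 to 3. No log2 ratio past the limit changed sign under any of them, but many ratios moved beyond their counting interval: of 69, 56 with equal weight per cell, 57 with at most 5% MT- UMIs, 49 after centring, 46 without mitochondrial and ribosomal protein genes, 42 with no quality filter, 41 with at most 10% MT- UMIs, 38 without the deepest cells and 33 without cells lacking MALAT1, and 29 of 50 among MISs-positive cells. Those that moved by over 1.5 times were 3 with equal weight, 7 with at most 5% MT- UMIs, 5 with no quality filter and 5 with 0.1 CPM added, and at most 6 ratios crossed the 2-fold limit under any setting. Shares of cells with a UMI fell in all 50 combinations of gene and library on thinning, so shares were compared between libraries after thinning. The cause of these differences was not tested. Depth limits single-cell shares. Summed levels also differed between depth classes of cells (FOS at 2 mo, where the classes were not split by MISs call). With 1 library per timepoint the spread between samples is unknown.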
